A study of Homo sapiens with 12 samples.

Results

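Restriction factors are proteins of the cell itself that stop a virus at a defined step of its life cycle, and many of them are induced by interferon. Here 10 such genes were followed in 624Mel cells, an established human melanoma line: the membrane proteins IFITM1, IFITM2, IFITM3 and BST2, the enzymes SAMHD1 and RSAD2, and the cytidine deaminases APOBEC3B, APOBEC3C, APOBEC3F and APOBEC3G. They were chosen by name, with earlier results of these data known, and are 10 of the 40173 Ensembl gene IDs listed. RNA was sequenced from 4 conditions with 3 libraries each. All cells were transfected with an siRNA, either a negative control (siCTRL) or one against MITF (siMITF), the transcription factor that keeps melanocytic cells differentiated. Cells of each kind then received either no interferon-γ (IFNγ) or 5 ng/mL IFNγ for 24 h, starting 24 h after transfection, and all cells were harvested at 48 h after transfection. The knockdown is transient and leaves some MITF RNA, and a single line was used. The question the design addresses is how loss of MITF, which moves the cells to a less differentiated state, alters the response of genes to IFNγ.

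The 10 genes act at different points of infection. The IFITM proteins sit in plasma and endosomal membranes and hinder fusion of the viral envelope with them. BST2, also called tetherin, anchors budding virions to the cell surface. SAMHD1 is a dNTP hydrolase that lowers the nucleotide pool available to reverse transcriptase, and RSAD2, or viperin, is a radical SAM enzyme that makes a chain-terminating nucleotide analogue. APOBEC3 enzymes deaminate cytidine in single-stranded DNA, and APOBEC3B, which resides in the nucleus, is also known as a source of mutations in tumours. Interferons reach such genes through STAT and IRF factors, which bind the gamma-activated site (GAS) and the interferon-stimulated response element (ISRE) in promoters.

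The 3 IFITM genes are neighbours on chromosome 11 in GRCh38: IFITM2 at chr11:303655-309397 and IFITM1 at chr11:310041-315272 on the forward strand, and IFITM3 at chr11:319676-329475 on the reverse strand. The 4 APOBEC3 genes lie in one forward-strand cluster on chromosome 22, from APOBEC3B at chr22:38982347-38992804 through APOBEC3C at chr22:39014257-39020352 and APOBEC3F at chr22:39040604-39055972 to APOBEC3G at chr22:39077067-39087743. BST2 is on the reverse strand at chr19:17402939-17405630, SAMHD1 on the reverse strand at chr20:36890229-36951893, and RSAD2 on the forward strand at chr2:6865557-6898239. Promoter windows from 250 bases before to 50 after a start site were matched in RefSeq (GRCh38.p14) for 5 of the 10 genes, IFITM1, IFITM3, BST2, RSAD2 and SAMHD1. They were searched on both strands for 3 words. These were the core of the ISRE (GAAA, any 2 bases, then GAAA), the GAS (TTCNNNGAA) and the E-box CACGTG, which MITF binds. Other forms of the E-box, such as the CATGTG in the RSAD2 stretch below, were not searched for. An ISRE core match overlaps the GAS in IFITM1 and 1 of the 2 GAS matches in BST2. The other GAS match in BST2 begins 58 bases before the start and lies apart. The ISRE core was found in 3.57% of 35116 promoters of that length, the GAS in 7.66% and the E-box in 7.26%. IFITM1, IFITM3, BST2 and 1 of the 2 listed starts of RSAD2 held the ISRE core, and BST2 and IFITM1 also held the GAS. SAMHD1 held none of the 3 words, and CACGTG was in none of these windows. The stretches around the ISRE core are printed 5′ to 3′ on the strand of the gene, with the matches in capitals. All 5 genes with a window rose with IFNγ, SAMHD1 included, so genes that rose could not be set against genes that did not. Whether the matches take part in the response to IFNγ was not tested.
BST2, chr19:17405705-17405800, reverse strand: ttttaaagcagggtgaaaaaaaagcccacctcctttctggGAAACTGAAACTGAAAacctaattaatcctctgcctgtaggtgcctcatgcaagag
IFITM1, chr11:313960-314083, forward strand: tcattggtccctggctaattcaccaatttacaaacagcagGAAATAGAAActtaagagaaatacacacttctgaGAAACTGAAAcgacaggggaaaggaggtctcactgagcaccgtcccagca
IFITM3, chr11:320846-320952, reverse strand: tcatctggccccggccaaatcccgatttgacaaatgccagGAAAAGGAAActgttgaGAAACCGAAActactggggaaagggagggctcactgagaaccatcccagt
RSAD2, chr2:6877592-6877681, forward strand: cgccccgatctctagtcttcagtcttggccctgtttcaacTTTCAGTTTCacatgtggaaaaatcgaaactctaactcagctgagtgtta
In BST2 the 2 matches overlap and begin 130 and 124 bases before the RefSeq start site. In IFITM1 they begin 40 and 6 bases before it and in IFITM3 52 and 35 bases before it. The match in RSAD2 begins 145 bases before its start and is on the opposite strand. The RefSeq start sites need not be the ends of the gene spans given above, and those of IFITM1, IFITM3 and RSAD2 lie inside these spans. A match is a run of letters in the reference and not a measured binding site.

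The authors deposited TPM, a share of transcripts corrected for their length, in which each library sums to about the same total, so levels of different genes can be set side by side. TPM keep no read numbers, so the depth of the libraries is unknown and no counting error or detection floor could be given. The listed TPM summed to between 975336 and 982632 per library, mitochondrial genes took between 7.42% and 16.9% of them with the library numbered 2 lowest in each condition, and no 2 libraries were identical. Differences are given as differences of log2(TPM + 1) from limma fitted to all 12 libraries, with the standard error (SE) and the p adjusted over the 12773 gene IDs whose mean reached 2 TPM in 1 or more of the conditions. On this scale the change of genes below a few TPM is understated, so ratios of mean TPM are given too. A gene rose or fell where the adjusted p was under 0.05, and it is called changed where it also differed by at least 1 on the log2 scale. The study's methods call replicates independent and biological, the labels do not say what separated them, and the p-values measure the spread between these libraries. An exact permutation test of 3 libraries against 3 cannot go below p = 0.1 and was not used. MITF, the siRNA target, was at 187, 229 and 217 TPM in siCTRL and at 36.0, 49.7 and 41.7 TPM in siMITF libraries, a fall by 2.29 in log2 (SE 0.19, adjusted p = 1.16e-06). With IFNγ, it was at 158, 246 and 243 TPM in siCTRL and at 37.5, 55.1 and 51.3 TPM in siMITF libraries, a fall by 2.14 (adjusted p = 2.39e-06). All 6 melanocytic markers looked up were present, with a summed level of 5418 to 7240 TPM in the siCTRL libraries with and without IFNγ and of 1411 to 1798 TPM in the siMITF libraries. Fibroblast markers summed to at most 1.54 TPM and endothelial markers to at most 0.800 TPM. Of 3 keratinocyte markers only KRT10 reached 2 TPM. Of 5 leukocyte markers only CD68, which other cells also make, did so, PTPRC (CD45) stayed at or under 0.732 TPM and CD3E was listed at 0. The leukocyte sum moved with the siRNA, from a range of 56.9 to 95 TPM over the siCTRL libraries to 23.0 to 38.0 TPM over the siMITF libraries, and its part in the results was not tested. In bulk RNA, fewer cells making a transcript and less of it per cell cannot be told apart.

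**Figure D1:**
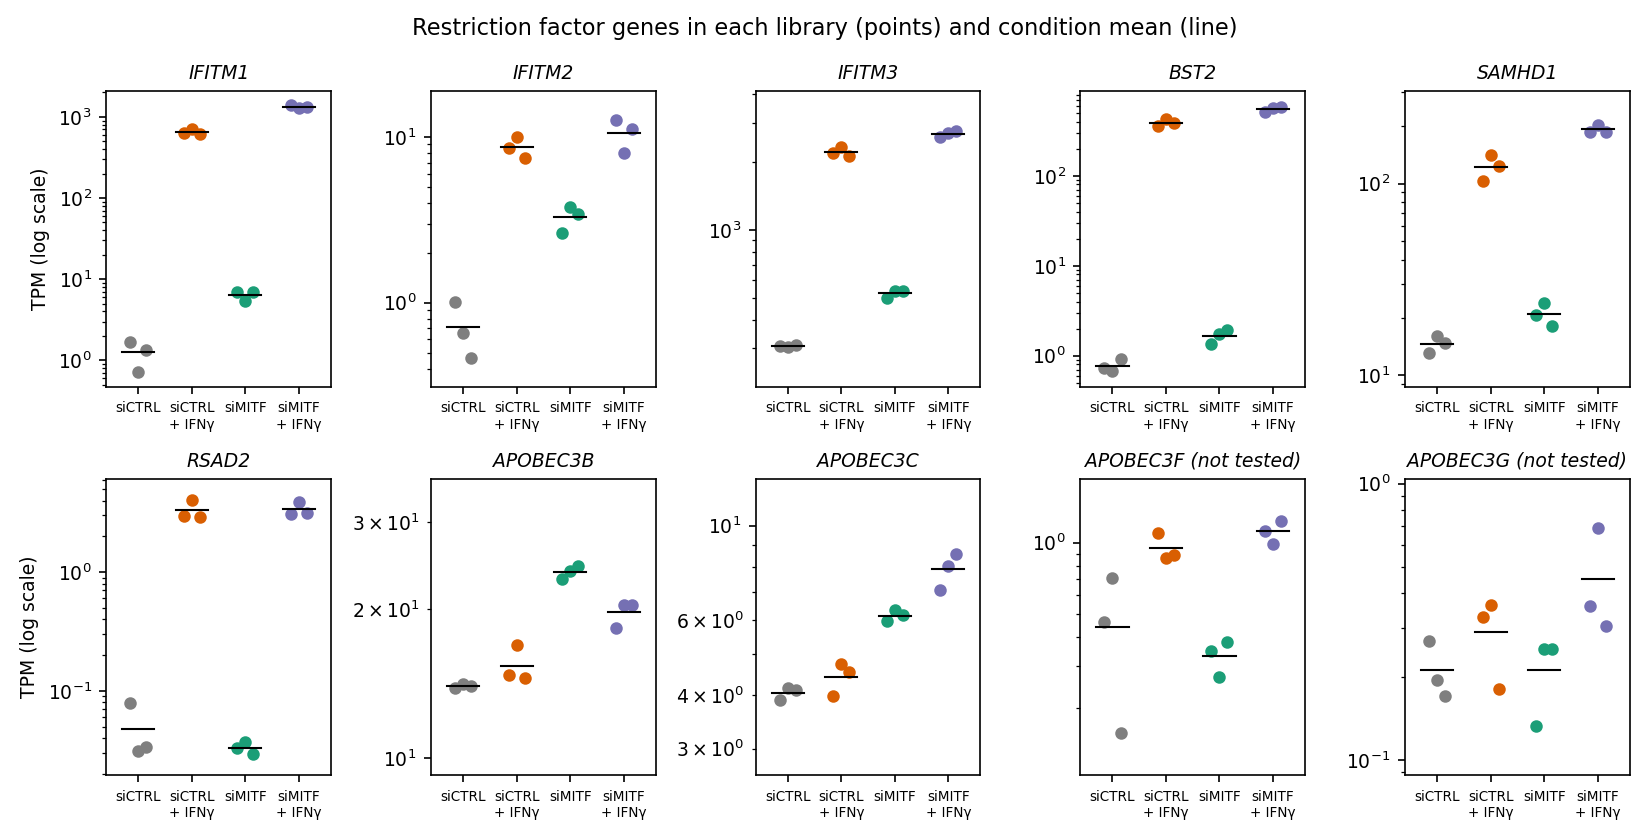
Each panel plots one restriction factor gene, with TPM on a log scale against the 4 conditions, points for the 3 libraries of a condition and a line at their mean. IFITM1 and BST2 are at or under 6.99 TPM without IFNγ and at or above 353 TPM with it, while APOBEC3B stays between 13.9 and 24.4 TPM in all libraries. APOBEC3F and APOBEC3G were below the minimum of 2 TPM and were not tested.

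IFITM3 was the most abundant of the 10 genes in every condition. It was at 306, 303 and 311 TPM in siCTRL and at 2200, 2350 and 2126 TPM in siCTRL + IFNγ libraries. In siMITF libraries it was at 501, 535 and 540 TPM, and in siMITF + IFNγ libraries at 2579, 2689 and 2762 TPM. The 4 conditions did not overlap, and their order was siCTRL, siMITF, siCTRL + IFNγ and siMITF + IFNγ. IFNγ raised IFITM3 by 2.86 (SE 0.06, adjusted p = 1.94e-12, 7.26-fold in mean TPM) in siCTRL cells and by 2.35 (SE 0.06, adjusted p = 9.65e-12, 5.10-fold) in siMITF cells. siMITF alone raised it by 0.77 (SE 0.06, adjusted p = 5.87e-07, 1.71-fold), and siMITF among IFNγ-treated cells by 0.27 (SE 0.06, adjusted p = 0.00356, 1.20-fold). IFITM3 was thus already abundant before IFNγ, unlike its neighbours.

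IFITM1, whose protein is found mostly at the plasma membrane, had the largest IFNγ effect of the 8 genes tested in siCTRL cells. It was at 1.71, 0.710 and 1.34 TPM in siCTRL and at 634, 705 and 621 TPM in siCTRL + IFNγ libraries. Without IFNγ the siMITF libraries held 6.99, 5.38 and 6.92 TPM, and with IFNγ they held 1386, 1295 and 1312 TPM. Every siMITF library was above every siCTRL library of the same treatment. IFNγ raised IFITM1 by 8.21 (SE 0.14, adjusted p = 4.96e-13, 522-fold in mean TPM) in siCTRL cells and by 7.49 (SE 0.14, adjusted p = 1.12e-12, 207-fold) in siMITF cells. The siMITF effect was 1.74 (SE 0.14, adjusted p = 1.38e-06, 5.14-fold) without IFNγ and 1.03 (SE 0.14, adjusted p = 0.000139, 2.04-fold) with it. The last of these passed the limit of 1 by little and was under it without siCTRL + IFNγ replicate 3 or without siMITF + IFNγ replicate 1, and then did not count as changed.

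IFITM2, an endosomal family member, had the lowest mean of the 3 in every condition. It was at 1.02, 0.656 and 0.467 TPM in siCTRL and at 8.52, 10.0 and 7.47 TPM in siCTRL + IFNγ libraries. Levels in siMITF libraries were 2.61, 3.76 and 3.43 TPM, and in siMITF + IFNγ libraries 12.6, 7.97 and 11.1 TPM. Only the pair of IFNγ-treated conditions overlapped. IFNγ raised IFITM2 by 2.50 (SE 0.18, adjusted p = 4.53e-07, 12.1-fold in mean TPM) in siCTRL cells and by 1.43 (SE 0.18, adjusted p = 9.29e-05, 3.24-fold) in siMITF cells. siMITF raised it by 1.32 (SE 0.18, adjusted p = 8.78e-05, 4.58-fold) without IFNγ. With IFNγ the siMITF difference was 0.25, with a 95% interval from -0.14 to 0.63 (adjusted p = 0.319).

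Summed over the 3 genes, IFITM RNA was at 308 ± 4.05 TPM (SD, n = 3) in libraries from siCTRL and at 535 ± 21.3 TPM in those from siMITF cells, and after IFNγ at 2887 ± 160 TPM in the former and 4018 ± 58.6 TPM in the latter. The make-up of this pool differed between conditions. IFITM3 supplied 99.4% of it in siCTRL and 98.2% in siMITF libraries, but 77.1% in siCTRL + IFNγ and 66.6% in siMITF + IFNγ libraries. The share of IFITM1 was 0.405% and 1.21% without IFNγ and 22.6% and 33.1% with it, in siCTRL and siMITF cells respectively. IFITM1 was between 22.3% and 23.0% of the pool in the siCTRL + IFNγ libraries and between 32.1% and 34.8% in the siMITF + IFNγ libraries, so these did not overlap. The sum rose with siMITF by 0.79 (adjusted p = 3.9e-07) without and by 0.48 (adjusted p = 3.5e-05) with IFNγ. The 3 genes are similar in sequence. Of the 31-base words in their transcripts, 40.6% in IFITM1, 25.9% in IFITM2 and 44.1% in IFITM3 also occur in transcripts of other genes. These other genes include members of the 3 and gene IDs outside them. Reads over such words could be split between the 3 genes, so the level of each is less certain than their sum. The sum does not settle a split with gene IDs outside the 3.

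**Figure D2:**
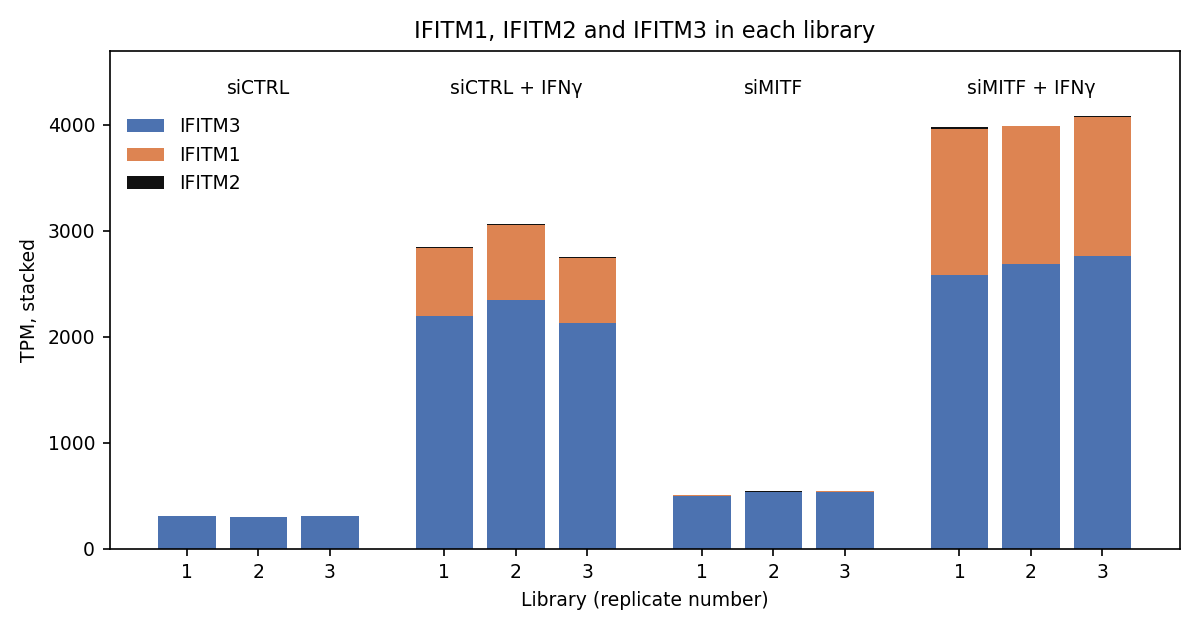
Stacked bars give the TPM of IFITM3, IFITM1 and IFITM2 in each of the 12 libraries, grouped by condition, with the axis starting at 0. IFITM3 makes up nearly the whole bar without IFNγ, and with IFNγ the IFITM1 segment is 22.6% of the bar on average in siCTRL and 33.1% in siMITF libraries. IFITM2 is a thin line at most.

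BST2 went from near absence to a high level with IFNγ. It was at 0.727, 0.679 and 0.928 TPM in siCTRL and at 353, 432 and 382 TPM in siCTRL + IFNγ libraries. In siMITF libraries it was at 1.36, 1.72 and 1.91 TPM, and in siMITF + IFNγ libraries at 515, 569 and 583 TPM. All siMITF libraries were above all siCTRL libraries of the same treatment. IFNγ raised BST2 by 7.77 (SE 0.10, adjusted p = 5.56e-14, 500-fold in mean TPM) in siCTRL cells and by 7.71 (SE 0.10, adjusted p = 5.91e-14, 333-fold) in siMITF cells. The rise with siMITF was 0.58 (SE 0.10, adjusted p = 0.000873, 2.14-fold) without IFNγ and 0.52 (SE 0.10, adjusted p = 0.00212, 1.43-fold) with it. None of its 31-base words occurs in another gene.

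SAMHD1, the dNTP hydrolase, was present before IFNγ and rose with each treatment. It was at 13.1, 16.0 and 14.8 TPM in siCTRL and at 103, 141 and 124 TPM in siCTRL + IFNγ libraries. In siMITF libraries its levels were 20.7, 23.9 and 18.1 TPM, and in siMITF + IFNγ libraries 186, 202 and 186 TPM. The 4 conditions did not overlap. IFNγ raised SAMHD1 by 2.98 (SE 0.12, adjusted p = 1.84e-09, 8.39-fold in mean TPM) in siCTRL cells and by 3.14 (SE 0.12, adjusted p = 8.58e-10, 9.16-fold) in siMITF cells. siMITF raised it by 0.48 (SE 0.12, adjusted p = 0.00894, 1.43-fold) without IFNγ and by 0.65 (SE 0.12, adjusted p = 0.00145, 1.56-fold) with it. Its transcripts share 17.6% of their words with the overlapping gene TLDC2, which was at or under 1.25 TPM in all libraries.

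RSAD2, the nucleotide-modifying enzyme, was the lowest of the 10 genes without IFNγ. It was at 0.0791, 0.0309 and 0.0338 TPM in siCTRL and at 0.0331, 0.0372 and 0.0293 TPM in siMITF libraries. With IFNγ it was at 2.96, 4.04 and 2.92 TPM in siCTRL and at 3.09, 3.87 and 3.17 TPM in siMITF libraries. The libraries with IFNγ were above all those without it, and the siCTRL and siMITF libraries overlapped in both treatments. IFNγ raised RSAD2 by 2.03 (SE 0.12, adjusted p = 7.49e-08, 68.9-fold in mean TPM) in siCTRL cells and by 2.08 (SE 0.12, adjusted p = 4.92e-08, 102-fold) in siMITF cells. These ratios rest on untreated levels at or under 0.0791 TPM, so their size is uncertain. The siMITF difference was -0.02 without IFNγ, with a 95% interval from -0.28 to 0.24 (adjusted p = 0.919), and 0.03 with IFNγ, with an interval from -0.23 to 0.29 (adjusted p = 0.882). Changes below 1 TPM are compressed on this scale, so these intervals say little about RSAD2 without IFNγ.

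APOBEC3B, the nuclear deaminase, rose with siMITF, and its IFNγ differences were small. It was at 13.9, 14.1 and 14.0 TPM in siCTRL and at 23.0, 23.9 and 24.4 TPM in siMITF libraries. With IFNγ it was at 14.7, 16.9 and 14.5 TPM in siCTRL and at 18.3, 20.4 and 20.4 TPM in siMITF libraries. The siMITF libraries without IFNγ were the highest of the 12, and no 2 conditions overlapped. siMITF raised APOBEC3B by 0.72 (SE 0.08, adjusted p = 2.34e-05, 1.70-fold in mean TPM) without IFNγ and by 0.34 (SE 0.08, adjusted p = 0.00720, 1.28-fold) with it, the latter with an adjusted p of 0.0760 when only the conditions compared were fitted. The IFNγ difference in siCTRL cells was 0.13, with a 95% interval from -0.05 to 0.31 (adjusted p = 0.375). In siMITF cells APOBEC3B fell by 0.26 (SE 0.08) with IFNγ at an adjusted p of 0.0445, and leaving out 1 library moved it past 0.05 in 10 of 12 fits, with adjusted p from 0.0254 to 0.132. This held for leaving out any library other than siCTRL + IFNγ replicates 1 and 2. Of its words, 40.4% also occur in transcripts of other genes. APOBEC3A, which was at or under 0.237 TPM in all libraries, holds 18.7%, and the rest are in genes whose levels are not given here. Reads over such words could be split between genes, so the level of APOBEC3B is less certain than that of a gene without them.

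APOBEC3C, a single-domain member of the cluster, was at 3.90, 4.16 and 4.11 TPM in siCTRL and at 3.99, 4.74 and 4.54 TPM in siCTRL + IFNγ libraries. In siMITF libraries it was at 5.96, 6.33 and 6.16 TPM, and in siMITF + IFNγ libraries at 7.06, 8.06 and 8.56 TPM. All 6 siMITF libraries were above all 6 siCTRL libraries. siMITF raised APOBEC3C by 0.50 (SE 0.10, adjusted p = 0.00146, 1.52-fold in mean TPM) without IFNγ and by 0.71 (SE 0.10, adjusted p = 0.000102, 1.79-fold) with it. The IFNγ difference was 0.10 in siCTRL cells, with a 95% interval from -0.11 to 0.31 (adjusted p = 0.573), and the siCTRL libraries with and without IFNγ overlapped. In siMITF cells APOBEC3C rose by 0.31 with IFNγ (SE 0.10, adjusted p = 0.0383). This passed the test in 4 of 12 fits that left out 1 library, with adjusted p from 0.0204 to 0.120, and was lost without siCTRL replicate 1 or 3, siCTRL + IFNγ replicate 3, any siMITF replicate, or siMITF + IFNγ replicate 2 or 3.

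APOBEC3F and APOBEC3G, which act on retroviral DNA in the cytoplasm, were below the minimum of 2 TPM everywhere and were not tested with the other genes. APOBEC3F was at 0.460, 0.706 and 0.156 TPM in siCTRL, 1.10, 0.859 and 0.889 TPM in siCTRL + IFNγ, 0.349, 0.272 and 0.380 TPM in siMITF and 1.13, 0.989 and 1.24 TPM in siMITF + IFNγ libraries. Its IFNγ-treated libraries were all above its untreated ones. In a fit without the minimum, APOBEC3F was higher with IFNγ by 0.45 (adjusted p = 0.0751) in siCTRL cells and by 0.67 (adjusted p = 0.00853) in siMITF cells. APOBEC3G was at 0.268, 0.194 and 0.170 TPM in siCTRL, 0.329, 0.363 and 0.180 TPM in siCTRL + IFNγ, 0.132, 0.253 and 0.252 TPM in siMITF and 0.359, 0.691 and 0.304 TPM in siMITF + IFNγ libraries. Its siCTRL, siCTRL + IFNγ and siMITF libraries overlapped, the siMITF + IFNγ libraries overlapped with siCTRL + IFNγ, and without the minimum no comparison of it had an adjusted p under 0.05.

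The 4 APOBEC3 genes together held 18.7 ± 0.413 TPM (SD, n = 3) in siCTRL and 30.5 ± 0.923 TPM in siMITF libraries, and after IFNγ 21.1 ± 1.60 TPM in the former and 29.2 ± 2.01 TPM in the latter. The sum rose with siMITF, by 0.68 (adjusted p = 3.4e-05) without and by 0.45 (adjusted p = 8.9e-04) with IFNγ, while the IFNγ differences were 0.16 (adjusted p = 0.232) in siCTRL and -0.06 (adjusted p = 0.626) in siMITF cells. APOBEC3B supplied 74.8%, 73.1%, 78.0% and 67.6% of this sum and APOBEC3C 21.7%, 21.0%, 20.2% and 27.0%, with siCTRL and siCTRL + IFNγ given before siMITF and its IFNγ-treated counterpart.

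Within a condition, the order of levels shifted with IFNγ. In siCTRL libraries IFITM3 at a mean of 306 TPM was followed by SAMHD1 and APOBEC3B, which overlapped, then by APOBEC3C, and then by IFITM1, BST2, IFITM2, APOBEC3F and APOBEC3G, whose neighbours in the order overlapped, with RSAD2 last. In siMITF libraries the order was IFITM3, APOBEC3B and SAMHD1, IFITM1 and APOBEC3C, IFITM2, BST2, APOBEC3F, APOBEC3G and RSAD2, and APOBEC3B and SAMHD1, as well as IFITM1 and APOBEC3C, overlapped. In both IFNγ-treated conditions the first 6 places were held by IFITM3, IFITM1, BST2, SAMHD1, APOBEC3B and IFITM2, followed by APOBEC3C, RSAD2, APOBEC3F and APOBEC3G. There the overlapping neighbours were APOBEC3C and RSAD2 in siCTRL + IFNγ and IFITM2 and APOBEC3C in siMITF + IFNγ libraries.

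Across the 10 genes, 8 passed the minimum of 2 TPM, and RSAD2 and BST2 did so only through the IFNγ-treated conditions, so their difference was a condition for being tested. With IFNγ in siCTRL cells 6 of the 8 rose, where 6.80% of all tested gene IDs rose, and the same 6 counted as changed, where 2.42% of all tested did so. The 6 were the IFITM genes, BST2, SAMHD1 and RSAD2. In siMITF cells 7 rose and 1 fell, where 7.99% of all tested rose and 12.2% fell, and 6 counted as changed upwards, where 2.72% of all did. The median IFNγ difference of the 8 was 2.68 in siCTRL and 2.21 in siMITF cells, and that of all tested was -0.07 and -0.10.

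siMITF without IFNγ raised 7 of the 8, all but RSAD2, where 21.0% of all tested rose, and the changed ones were IFITM1 and IFITM2, where 3.22% of all tested changed upwards. With IFNγ present, 6 rose with siMITF, where 18.4% of all tested did, the exceptions being IFITM2 and RSAD2, and only IFITM1 counted as changed, where 3.12% of all tested did so upwards. Medians over the 8 were 0.65 without and 0.43 with IFNγ, and over all tested 0.06 and 0.03. Between siMITF + IFNγ and siCTRL libraries all 8 tested genes rose, where 21.1% of all tested did, and 6 changed upwards, where 5.61% of all tested did. This combined difference was 9.23 for IFITM1, 8.29 for BST2, 3.63 for SAMHD1, 3.12 for IFITM3, 2.75 for IFITM2, 2.06 for RSAD2, 0.81 for APOBEC3C and 0.47 for APOBEC3B. By ratio of mean TPM RSAD2, at 70.4-fold, came above IFITM2 (14.8-fold), SAMHD1 (13.1-fold) and IFITM3 (8.74-fold). Several of these comparisons share libraries, so their values stand side by side and are not independent of each other.

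**Figure D3:**
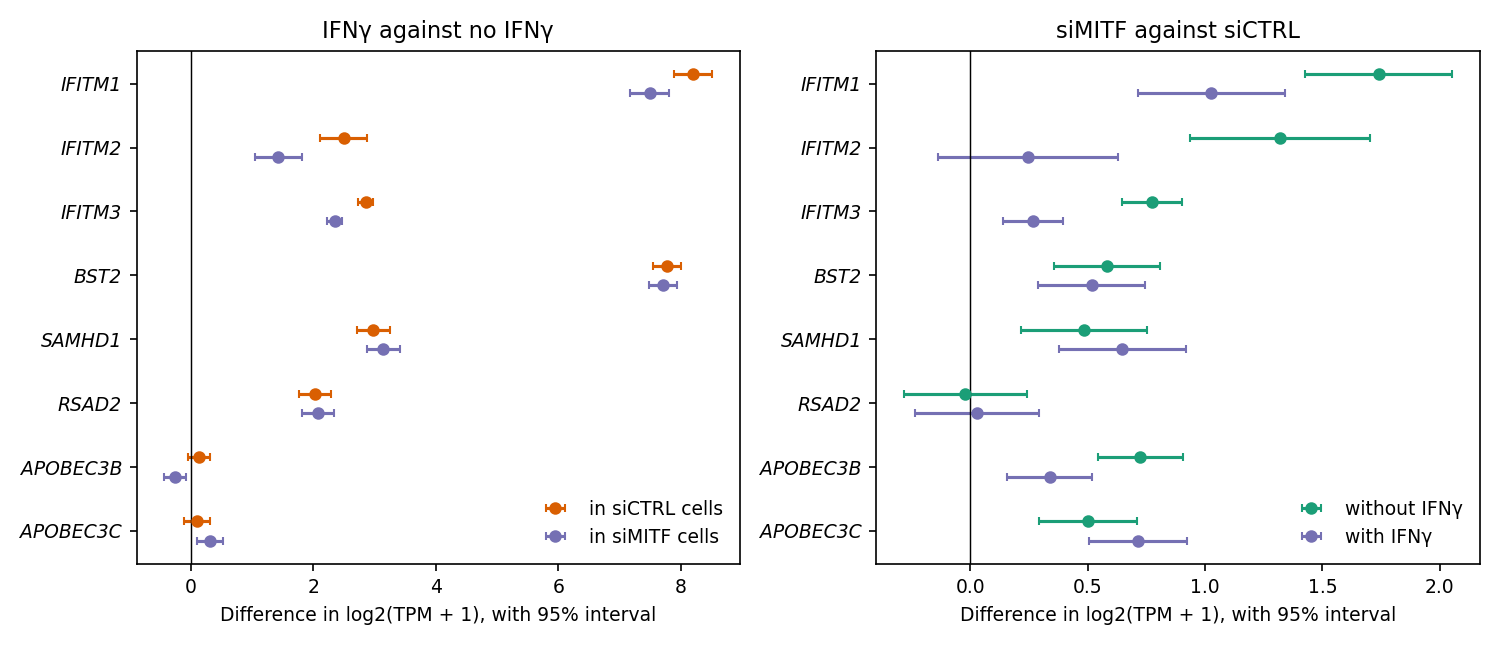
For each of the 8 tested genes, points give differences of log2(TPM + 1) and bars their 95% intervals, for IFNγ against no IFNγ in siCTRL and siMITF cells on the left and for siMITF against siCTRL without and with IFNγ on the right. The IFNγ effects of IFITM1 and BST2 lie between 7.49 and 8.21, those of APOBEC3B and APOBEC3C between -0.26 and 0.31. The siMITF effects of all but RSAD2 lie above 0 without IFNγ.

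Whether siMITF altered the IFNγ effect was tested as the interaction, which is the IFNγ difference among siMITF cells less the one among siCTRL cells. IFITM3 was the only one of the 8 with an adjusted p under 0.05, at -0.51 (SE 0.08, 95% interval from -0.69 to -0.33, adjusted p = 0.00929), where 0.243% of all tested genes had a lower and 0.705% a higher IFNγ effect in siMITF cells. When libraries were centred on their medians it was -0.49 with an adjusted p of 0.0577. IFITM1 at -0.71 (SE 0.20, adjusted p = 0.195) and IFITM2 at -1.07 (SE 0.25, adjusted p = 0.0824) had larger differences of the same sign that did not pass. The libraries of one number in different conditions deviated together, so a fit with a block for the number was also made. With it the adjusted p was 0.00289 for IFITM3, 0.0454 for IFITM2 and 0.0518 for IFITM1, so IFITM2 passed as well. For the IFITM sum the interaction was -0.31 with an adjusted p of 0.128, and of 0.0459 with the block. For BST2 it was -0.07 (95% interval from -0.39 to 0.25, adjusted p = 0.993), for SAMHD1 0.17 (from -0.22 to 0.55, adjusted p = 0.955), for RSAD2 0.05 (from -0.32 to 0.42, adjusted p = 0.996), for APOBEC3B -0.39 (from -0.64 to -0.13, adjusted p = 0.249) and for APOBEC3C 0.21 (from -0.08 to 0.51, adjusted p = 0.837).

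The TPM scale asks whether IFNγ adds the same amount. The log2(TPM + 1) scale asks whether IFNγ multiplies levels by the same factor only where they are well above 1 TPM. Without IFNγ, BST2, IFITM1, IFITM2 and RSAD2 were near or below that in siCTRL cells, so their interactions can understate differences in fold. BST2 rose 500-fold in siCTRL and 333-fold in siMITF cells. Over the alternative log2 fits the interaction reached -0.489 for BST2 and -1.31 for IFITM1, with no adjusted p under 0.05 for either. On the TPM scale the sign differed for 3 genes. IFNγ added 652 TPM of IFITM1 in siCTRL cells and 1324 TPM in siMITF cells, and the combination exceeded the sum of the separate gains by 672 TPM (SE 38.1). For IFITM3 the gains were 1919 and 2152 TPM and the excess 233 TPM (SE 85.7), and for BST2 they were 388 and 554 TPM and the excess 166 TPM (SE 30.8). IFITM3 therefore had a smaller fold response and a larger gain in TPM in siMITF cells. SAMHD1 had an excess of 62.5 TPM (SE 12.4), with the same sign on both scales. APOBEC3B was under the sum of its separate effects, with a departure of -5.46 TPM (SE 1.13). For IFITM2 the departure was -0.650 TPM (SE 1.59), for RSAD2 0.0849 TPM (SE 0.443) and for APOBEC3C 1.38 TPM (SE 0.513). No test was run on these TPM departures.

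A further list of 44 restriction factors and related antiviral genes was examined beside the 10, of which 32 were tested and 12 were not. Of the 32, 5 (GBP5, TRIM22, OAS2, SAMD9L and IFIT2) passed the minimum only through the IFNγ-treated conditions, so their rise was a condition for being counted. In siCTRL cells 25 of the 32 rose with IFNγ (6.80% of all tested) and 17 changed upwards (2.42% of all tested). In siMITF cells 27 rose (7.99%) and 19 changed upwards (2.72%). The largest rises on the log2(TPM + 1) scale in siCTRL cells were those of GBP5 (6.60), a guanylate-binding GTPase, TRIM22 (5.58), a ubiquitin ligase, and ISG15 (5.10), a ubiquitin-like modifier. GBP5 was at 0.189, 0.165 and 0.184 TPM in siCTRL and at 102, 124 and 114 TPM in siCTRL + IFNγ libraries. In siMITF cells GBP5 (7.19), GBP2 (5.50) and TRIM22 (5.09) rose most on that scale. By ratio of mean TPM the first 3 were GBP5 (634-fold), TRIM22 (159-fold) and OAS2 (110-fold) in siCTRL cells, and GBP5 (824-fold), TRIM22 (137-fold) and OAS2 (127-fold) in siMITF cells. MX1, a dynamin-like GTPase, was among the genes of the list that did not rise, at -0.13 (adjusted p = 0.567) in siCTRL and -0.30 (adjusted p = 0.0997) in siMITF cells. On the log2(TPM + 1) scale the effects of IFITM1 and BST2 were above that of every tested gene of the further list in both kinds of cells, whereas by ratio of mean TPM GBP5 was above both. The median IFNγ difference of the list was 1.06 in siCTRL and 1.29 in siMITF cells, and both tested APOBEC3 genes lay below it.

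**Figure D4:**
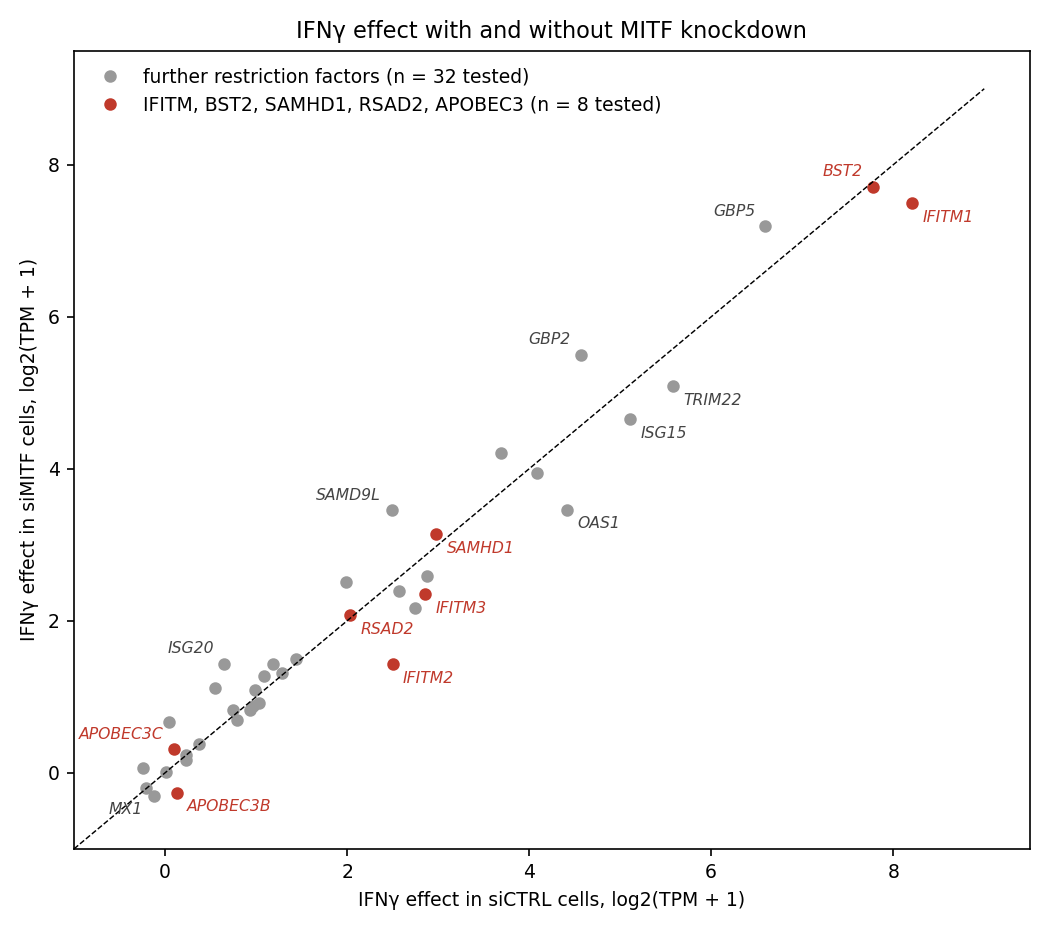
The IFNγ difference of log2(TPM + 1) in siMITF cells is plotted against that in siCTRL cells, with 1 point per gene, red for the 8 tested restriction factors described in detail, grey for 32 further ones, and a dashed line where both are equal. IFITM1, IFITM2 and IFITM3 lie below the line, at 8.21 and 7.49, 2.50 and 1.43, and 2.86 and 2.35, and GBP5 and GBP2 lie above it.

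Without IFNγ, siMITF raised 2 of the 32 genes of the further list, OAS1 (0.71) and MOV10 (0.30), where 21.0% of all tested gene IDs rose, and 9 fell, where 13.8% fell. The changed ones were ISG20, an exonuclease that degrades RNA, which fell by 2.40 (adjusted p = 1.39e-09), and PLSCR1, a membrane scramblase, which fell by 1.12 (adjusted p = 1.81e-06), where 2.88% of all tested changed downwards. ISG20 was at 101, 103 and 94.0 TPM in siCTRL and at 19.5, 15.8 and 18.9 TPM in siMITF libraries. TRIM25, a ubiquitin ligase, was just under the limit, with 60.6, 81.1 and 67.1 TPM in siCTRL libraries against 30.9, 40.2 and 31.9 TPM with siMITF (adjusted p = 0.00232). With IFNγ, 5 rose and 9 fell with siMITF, where 18.4% of all tested rose and 14.7% fell. GBP2 changed upwards (1.10, adjusted p = 3.7e-05), where 3.12% of all tested did, and ISG20 (-1.62, adjusted p = 3.45e-08) and IFIT1 (-1.41, adjusted p = 1.98e-06), which binds viral RNA ends, changed downwards, where 2.57% of all tested did. The list's median was -0.08 without and -0.18 with IFNγ. In the comparison of siMITF + IFNγ with siCTRL libraries, 23 of the 32 rose and 4 fell, where 21.1% of all tested rose and 23.4% fell, and 16 changed upwards, where 5.61% did. With the fold taken from mean TPM, 6 genes in place of 2 counted as changed by siMITF without IFNγ, where 1018 of all tested did in place of 779.

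**Figure D5:**
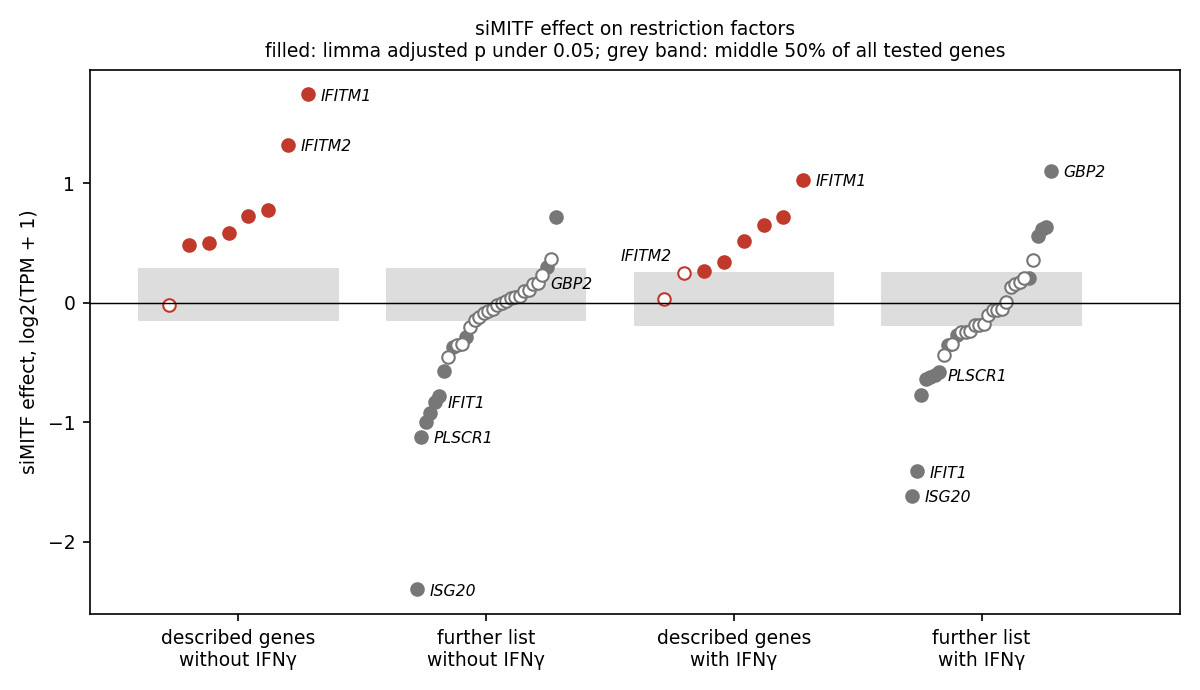
siMITF differences of log2(TPM + 1) are shown for the 8 tested described genes (red) and the 32 tested genes of the further list (grey), without IFNγ on the left and with IFNγ on the right, each ordered by size. Filled points had an adjusted p under 0.05, and the grey band spans the middle 50% of all tested genes. Without IFNγ 7 of 8 red points are filled and above 0, and of the grey ones 2 are filled above and 9 below.

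On the interaction, 3 genes of the further list passed, where 0.705% of all tested passed upwards, all with a larger IFNγ effect in siMITF cells: GBP2 (0.93, SE 0.19, adjusted p = 0.0372), ISG20 (0.78, SE 0.12, adjusted p = 0.00786) and GBP5 (0.59, SE 0.12, adjusted p = 0.0487). GBP2 was at 101, 104 and 96.3 TPM in siCTRL + IFNγ and at 261, 202 and 192 TPM in siMITF + IFNγ libraries. IFITM3 had the opposite sign to these 3. The number of genes of the list that passed was 1 with a pseudocount of 0.5, where 88 of all tested passed in place of 121. With the replicate block the number was 7, 6 of them higher and 1 lower, where 276 of all tested passed. The number for the list was also 1 in 7 of the 12 fits that left out a library, namely siCTRL replicate 1 or 3, siCTRL + IFNγ replicate 1 or 3, siMITF replicate 1 or 2, or siMITF + IFNγ replicate 2. In those 7 fits 74 to 100 of all tested passed.

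The libraries fall into 4 conditions, so likeness over them mostly reflects the condition means and is given as a description. Over the 12 libraries the log2(TPM + 1) values of IFITM1, IFITM2, IFITM3, BST2, SAMHD1 and RSAD2 had Pearson r from 0.880 to 0.997 with each other. APOBEC3B had r from -0.10 to 0.305 with these and 0.779 with APOBEC3C, and APOBEC3C had r from 0.320 to 0.552 with them. Outside the 10 genes, the tested gene most like BST2 was IFI27 (r = 0.999), and that most like both IFITM1 (r = 0.994) and SAMHD1 (r = 0.998) was IL18BP. The closest to IFITM3 was SOCS3 (r = 0.996), to RSAD2 PSMB8 (r = 0.996), to IFITM2 SSBP4 (r = 0.982), to APOBEC3B CNKSR3 (r = 0.983) and to APOBEC3C ITPR2 (r = 0.984).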

How the data were processed

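RNA sequencing of 624Mel cells gave 12 libraries, 3 in each of 4 conditions named in the labels. The authors trimmed reads with Trimmomatic (version 0.39 per the submitters' processing notes), quantified them with kallisto on the Ensembl GRCh38 transcriptome, and deposited TPM per gene ID. How transcripts were summed to genes and the annotation release are not given in the sources used here. The authors tested counts with DESeq2, and counts were not used here. Symbols matched 35520 of 40173 gene IDs. TPM keep no depth, so precision rests on the 3 libraries per condition.

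Values were transformed to log2(TPM + 1), and gene IDs whose mean reached 2 TPM in any condition were fitted with limma 3.58.1 in R 4.3.3, with 1 coefficient per condition, an intensity trend, two-sided moderated tests and Benjamini-Hochberg adjustment over 12773 gene IDs. All comparisons and the interaction came from that fit. Changed genes had an adjusted p under 0.05, an absolute log2 difference of 1 or more, and a mean not under 2 TPM in 1 or both conditions compared. Library correlations across genes were 0.917 to 0.995. After removing condition means, 18 same-numbered library pairs from different conditions correlated at 0.102 to 0.625 (36 other pairs: median -0.196), so the numbers were taken to pair the libraries and a block was fitted as an alternative. The step was tested on simulated data. Shared words were 31 bases long, from GRCh38 transcripts, and promoters came from RefSeq. Tables and figures used numpy 2.4.6, pandas 2.3.3 and matplotlib 3.10.9 under Python 3.11.15.

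The 10 genes, the list of 44 and the tests were chosen with earlier results of these data known. Named were the 10 genes, MITF, cell type markers, list genes called in a comparison, and the gene most correlated with each tested one. MX1, TLDC2 and APOBEC3A were named after their values were seen. Alternatives were pseudocounts of 0.1 and 0.5, no filter or a mean of 5 TPM, quantile normalization, median centring, removal of mitochondrial genes, other moderation and sample choices, the block, folds from mean TPM, linear TPM, an adjusted p under 0.01 and each library left out.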

Additional observations from a re-analysis of the deposited data

Results flagged for a closer look

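The IFNγ effect differed between siMITF and siCTRL cells for 4 of the 40 tested genes described. This was by limma's interaction test at an adjusted p under 0.05, in the fit without a replicate block. Over all tested genes 0.705% had a larger and 0.243% a smaller effect in siMITF cells by that test. IFITM3 had the smaller effect in siMITF cells, with a difference of -0.51. GBP5 (0.59), GBP2 (0.93) and ISG20 (0.78) had the larger effect there. With the replicate block, 2 of the 8 genes described in detail and 7 of the 32 of the further list passed, where 276 of all tested did. With 3 libraries per condition, no test for single distant libraries was made.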

How the results depend on the processing

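Among single values under alternatives, 1143 kept their direction and side of the threshold, 26 lost the call, 3 gained it and 14 changed sign, and the causes were not tested. No scaling moved the median of all genes by over 0.1. Signs turned where a difference was near 0: RSAD2 for siMITF with IFNγ (-0.0656 under quantile normalization, -0.0502 to 0.148 leaving out 1 library), RSAD2 for siMITF without IFNγ (-0.0318 to 0.00118 leaving out 1 library), the RSAD2 interaction (-0.0301 to 0.168 leaving out 1 library) and the BST2 interaction (0.22 under quantile normalization, -0.150 to 0.0119 leaving out 1 library). On the log2 scale the BST2 interaction was as low as -0.489 in another of the alternative fits that kept all libraries. In linear TPM the departures of IFITM1 (672), IFITM3 (233) and BST2 (166) were positive, against negative log2 interactions. Changed genes of the further list for siMITF without IFNγ, 2 as reported, numbered 5 with a pseudocount of 0.1, 4 with 0.5, 6 with folds from mean TPM, and 2 to 4 leaving out 1 library (4 without siCTRL replicate 1 or siMITF replicate 2). Over all tested genes 779 changed in that comparison as reported, 992 and 878 with those pseudocounts and 1018 with folds from mean TPM. Described genes with an interaction, 1 as reported, numbered 2 with a pseudocount of 0.1, 0 with median centring (IFITM3 at an adjusted p of 0.0577), 2 with the replicate block, and 1 to 2 leaving out 1 library (2 without siMITF + IFNγ replicate 1). List genes with an interaction, 3 as reported, numbered 1 with a pseudocount of 0.1 or 0.5, 6 under quantile normalization, 5 without mitochondrial genes, 7 with the replicate block, 1 at an adjusted p under 0.01, and 1 to 3 leaving out 1 library. Over all tested genes the interaction count was 121 as reported, 68 and 88 with those pseudocounts, 294 under quantile normalization and 220 without mitochondrial genes. It was 263 with median centring, 276 with the replicate block, 60 at an adjusted p under 0.01 and 70 to 125 leaving out 1 library. Described genes changed by siMITF with IFNγ numbered 0 to 1 leaving out 1 library. With the replicate block the interaction of the IFITM sum was -0.31 at an adjusted p of 0.0459 and that of IFITM2 passed; the block changed no other call of a described gene. With a mean of at least 5 TPM required, RSAD2 had no value and 5 described genes changed with IFNγ.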
